A study of Gallus gallus with 8 samples.

Results

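In cultured chicken skin cells, 14 gene features without a name were near 0 in confluent keratinocyte monolayers and well above it in layered cultures. They were chosen by their measured levels: each had at least 20 CPM in each of 3 skin equivalents and under 1 CPM in each of 3 confluent monolayers. CPM is the count of a feature per 1000000 gene counts of its library, here with no further scaling. The members are 14 of 24759 features that carry an ENSGALG identifier, or 0.0565%, and the tables hold 24902 features in all. The same rule was met by 16 of the 143 features with a name set by the authors, or 11.2%. The reverse pattern, at least 20 CPM in each monolayer and under 1 CPM in each skin equivalent, was shown by 34 ENSGALG features.

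Keratinocytes are the main cells of the epidermis. They divide in its lowest layer, then stop dividing, move outwards, build keratin filaments and a cross-linked protein envelope, and die as flat cornified cells. In culture, a flat keratinocyte sheet goes through this program only in part, and a skin equivalent, in which the cells stack into layers, goes further. Proteins of the cornified layer, many of them encoded in the epidermal differentiation complex, are made late in this program, and birds add corneous beta-proteins, the material of scales, claws and feathers.

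The cells were primary Gallus gallus skin cells, sequenced as poly(A) RNA in 8 libraries. The groups were keratinocytes differentiated in a skin equivalent (3 libraries), keratinocytes in confluent monolayer (3), subconfluent keratinocytes (1) and confluent fibroblasts (1). Titles carry the codes 20, 34 and 56 for replicates 1 to 3 of both replicated groups, 20 for the subconfluent library and none for fibroblasts. The letters wo follow the code in replicates 2 and 3 of both replicated groups and are missing from the other 4 titles. A number marked d in the titles is 8 in the monolayers and 7 in skin equivalent 1, and skin equivalents 2 and 3 have none. Strain, sex, age and number of birds, the make-up of the skin equivalents and the meaning of the codes and letters stand in none of the sources used here. Separate birds or cultures are not stated, so any p-value measures a spread between libraries that may be technical.

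Gene counts lay between 27329706 and 36728801 per library, so that 3 counts correspond to 0.0817 to 0.110 CPM. The fibroblast library stood apart, with 2.53% ambiguous fragments against 0.485% to 0.815% in the other 7 libraries. Keratin markers of the basal layer (Krt5L1, Krt5L2, Krt14L1, Krt14L2 and Krt15) held between 1.00% and 3.61% of gene counts in the 7 keratinocyte libraries and 0.000480% in fibroblasts. Fragments mapping to several places made up 7.06% to 8.66% of the skin equivalents and 4.45% to 4.59% of the monolayers, and their part in the results was not tested. No gene name, role or sequence is given for any member: neither the count tables nor the RefSeq gene table that was used (GRCg7b) links ENSGALG identifiers to symbols. The results are therefore ordered by level and by pattern. CPM is not scaled to transcript length, which the tables do not hold, so an order of CPM between features is one of counts and not of transcripts.

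Together the 14 members took up 0.180%, 0.235% and 0.208% of all gene counts in skin equivalents 1 to 3. Their share of monolayers 1 to 3 was 0.000326%, 0.000549% and 0.000409%, which were 91, 165 and 125 counts. The subconfluent library held 696 of their counts (0.00189%), and the fibroblast library 382 (0.00133%). All 14 had counts in the subconfluent library and 9 had counts in fibroblasts, whereas none of the 14 reached 20 CPM in either. The gap between skin equivalents and monolayers is what the rule asked for and is given as a description only. In bulk RNA of this kind, fewer cells of a type and less RNA per cell cannot be told apart.

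**Figure D1:**
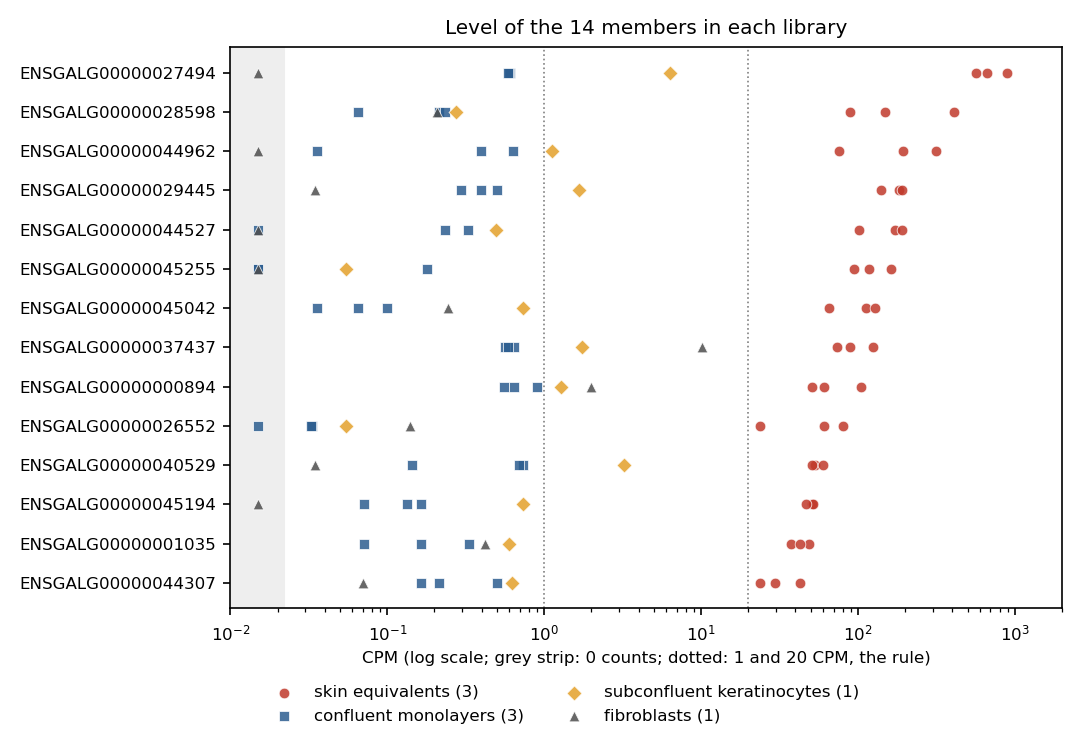
CPM of each member (rows, from the highest to the lowest mean over skin equivalents) in each of 8 libraries, on a log axis; points are single libraries, the grey strip holds libraries with 0 counts, and dotted lines mark 1 and 20 CPM. Skin equivalents lie between 23.6 and 898 CPM, and no other library exceeds 10.2 CPM.

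ENSGALG00000027494 had the highest level of the 14. It was at 564, 666 and 898 CPM in skin equivalents 1 to 3, and at 0.608, 0.599 and 0.590 CPM in monolayers 1 to 3. The subconfluent library had 6.37 CPM, or 234 counts, and fibroblasts had 0 counts. The monolayers were nearly equal, and the subconfluent value lay above all of them and far under every skin equivalent. This feature alone supplied between 28.4% and 43.1% of the members' counts in a skin equivalent, with a mean of 709 ± 171 CPM (SD, n = 3).

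Next came 3 members with means between 172 and 217 CPM in skin equivalents. ENSGALG00000028598 was at 89.4, 411 and 149.9 CPM in skin equivalents 1 to 3, at 0.215, 0.233 and 0.0655 in monolayers 1 to 3, at 0.272 in subconfluent keratinocytes and at 0.209 in fibroblasts. ENSGALG00000044962 was at 193, 314 and 75.8 CPM in skin equivalents, at 0.0358, 0.632 and 0.393 in monolayers, at 1.12 in subconfluent keratinocytes and at 0 counts in fibroblasts. Both were highest in skin equivalent 2 and uneven over the replicates. ENSGALG00000029445 was more even, at 183, 191 and 141 CPM in skin equivalents and 0.394, 0.499 and 0.295 in monolayers, with 1.66 in subconfluent keratinocytes and 1 count (0.0348 CPM) in fibroblasts.

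A further 3 members had means between 102 and 155 CPM. ENSGALG00000044527 was at 172, 102 and 191 CPM in skin equivalents 1 to 3, at 0, 0.233 and 0.328 in monolayers 1 to 3, at 0.490 in subconfluent keratinocytes and at 0 counts in fibroblasts. ENSGALG00000045255 was at 94.7, 117 and 161 CPM in skin equivalents, had 5, 0 and 0 counts in monolayers, 2 counts in subconfluent keratinocytes and 0 counts in fibroblasts. Outside skin equivalents it was thus nearly silent, with 7 counts in the other 5 libraries together, 5 of them in monolayer 1. ENSGALG00000045042 was at 113, 65.3 and 129 CPM in skin equivalents, at 0.0358, 0.0998 and 0.0655 in monolayers, at 0.735 in subconfluent keratinocytes and at 0.243 in fibroblasts.

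The only members at 1 CPM or more in fibroblasts were ENSGALG00000037437 and ENSGALG00000000894. ENSGALG00000037437 was at 73.5, 124 and 89.1 CPM in skin equivalents 1 to 3, at 0.644, 0.565 and 0.590 in monolayers 1 to 3, at 1.74 in subconfluent keratinocytes and at 10.2 in fibroblasts. ENSGALG00000000894 was at 60.6, 104 and 51.2 CPM in skin equivalents, at 0.644, 0.898 and 0.557 in monolayers, at 1.28 in subconfluent keratinocytes and at 1.98 in fibroblasts. For both, the 5 other libraries lay under every skin equivalent. The narrowest gap of any member was that of ENSGALG00000037437, whose lowest skin equivalent was 7.24 times its fibroblast level.

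The last 5 members had means between 32.1 and 55.1 CPM in skin equivalents. ENSGALG00000026552 was at 61.2, 80.5 and 23.6 CPM in skin equivalents 1 to 3, had 0, 1 and 1 counts in monolayers 1 to 3 and 2 counts in subconfluent keratinocytes, and was at 0.139 CPM (4 counts) in fibroblasts. With 2 counts over all monolayers, its ratio of skin equivalents to monolayers was 2437-fold, with a 95% counting interval of 674 to 20126. The rule chose members on these same values, so the ratio is a description. The interval covers counting error only and not the spread between libraries. ENSGALG00000040529 was at 52.9, 50.9 and 59.9 CPM in skin equivalents, at 0.143, 0.732 and 0.688 in monolayers, at 3.21 in subconfluent keratinocytes and at 0.0348 in fibroblasts. It stood out by its subconfluent level, and its mean over skin equivalents was only 17.0 times that level, the smallest such ratio of the 14.

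Members ENSGALG00000045194, ENSGALG00000001035 and ENSGALG00000044307 were low in monolayers and subconfluent keratinocytes but had counts in each of these libraries. In monolayer 1, ENSGALG00000045194 and ENSGALG00000001035 had only 2 counts each. ENSGALG00000045194 was at 50.8, 52.0 and 47.0 CPM in skin equivalents 1 to 3, at 0.0716, 0.133 and 0.164 in monolayers 1 to 3, at 0.735 in subconfluent keratinocytes and at 0 counts in fibroblasts. ENSGALG00000001035 was at 48.6, 37.3 and 42.7 CPM in skin equivalents, at 0.0716, 0.333 and 0.164 in monolayers, at 0.599 in subconfluent keratinocytes and at 0.417 in fibroblasts. ENSGALG00000044307 was at 42.7, 29.8 and 23.9 CPM in skin equivalents, at 0.215, 0.499 and 0.164 in monolayers, at 0.626 in subconfluent keratinocytes and at 0.0695 in fibroblasts. Over all 14 members, the ratio of skin equivalents to monolayers ran from 102-fold for ENSGALG00000000894 to the 2437-fold of ENSGALG00000026552.

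The thresholds cut through a continuous range. Just inside the threshold of 20 CPM, the lowest skin equivalent was at 23.6 CPM for ENSGALG00000026552, 23.9 for ENSGALG00000044307 and 37.3 for ENSGALG00000001035. Just outside it lay ENSGALG00000005467 (lowest skin equivalent 18.4 CPM), ENSGALG00000039209 (18.0) and ENSGALG00000031440 (17.6). The last of these was at 44.3 CPM in fibroblasts, above its levels in skin equivalents. Just inside the threshold of 1 CPM, the highest monolayer was at 0.898 CPM for ENSGALG00000000894, 0.732 for ENSGALG00000040529 and 0.644 for ENSGALG00000037437. Just outside it lay ENSGALG00000020485 (highest monolayer 1.02 CPM), ENSGALG00000005616 (1.11) and ENSGALG00000034168 (1.13). ENSGALG00000020485 missed the rule by monolayer 3, at 393, 1021 and 452 CPM in skin equivalents 1 to 3. With thresholds of 10 and 2 CPM, 56 features met the rule, and with 50 and 0.5 CPM, 5 did. Requiring only the group means to pass 20 and 1 CPM gave 37.

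Subconfluent keratinocytes, whose levels the rule did not use, held more RNA of the members than the confluent monolayers did. The rule did use the monolayer levels and kept them under 1 CPM, which raises such a difference. The summed level was 18.9 CPM in subconfluent keratinocytes, against 3.26, 5.49 and 4.09 CPM in monolayers 1 to 3 and 13.3 CPM in fibroblasts. Without ENSGALG00000027494 it was 12.6 CPM in subconfluent keratinocytes, 2.65, 4.89 and 3.50 CPM in the monolayers and 13.3 CPM in fibroblasts. The subconfluent level lay above all 3 monolayers for 13 of 14 members, the exception being ENSGALG00000045255. Of other ENSGALG features under 1 CPM in each monolayer and with a count in at least 1 of them, 23.5% showed this order, and of those with a count in every monolayer, 30.7%. Of other ENSGALG features at 20 CPM or more in each skin equivalent and under 10 CPM in each monolayer, 55.3% did. The named features that met the same rule showed it in 11 of 16 cases. Monolayer 1 shares the title code 20 with the subconfluent library. The 13 members above all 3 monolayers were above it by definition, so it gives no separate check for them. ENSGALG00000045255 was lower in the subconfluent library (0.0545 CPM) than in monolayer 1 (0.179 CPM).

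The median ratio of the subconfluent level to the pooled monolayers was 3.00 over the members. It was 0.822 over the other features with a count in every monolayer, and 1.37 over those high in skin equivalents and under 10 CPM in monolayers. ENSGALG00000045042 had the largest ratio, 10.8, with a 95% counting interval of 4.39 to 32.1. That of ENSGALG00000027494 was 10.6 (interval 7.87 to 14.6), that of ENSGALG00000040529 was 6.05 (4.28 to 8.68) and that of ENSGALG00000045194 was 5.92 (2.84 to 13.2). For 11 of 14 members the interval lay above 1, and for ENSGALG00000028598, ENSGALG00000026552 and ENSGALG00000045255 it did not. The share of other features with such an interval was not taken, so the count of 11 has no background to be read against. The members were selected on low monolayer values, which raises such ratios, and the subconfluent group has 1 library, so no test was made and the intervals cover counting error only. In absolute terms no member exceeded 6.37 CPM in the subconfluent library. Under 1 CPM in that library were 96.2% of the other features under 1 CPM in each monolayer and with a count there. Only 8 of 14 members were, which is a smaller share. Those other features need not be high in skin equivalents, and the share among features that are was not taken. With cuts of 0.5 and 2 CPM, 4 and 12 members lay under the cut, with no background taken. The 6 at 1 CPM or more were ENSGALG00000027494, ENSGALG00000040529, ENSGALG00000037437, ENSGALG00000029445, ENSGALG00000000894 and ENSGALG00000044962.

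**Figure D2:**
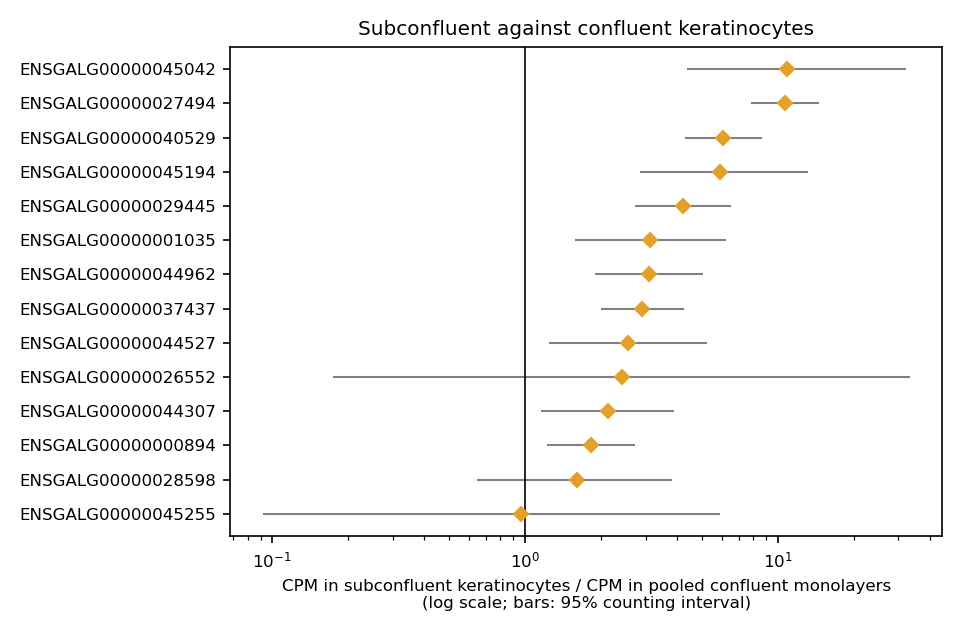
Ratio of CPM in the subconfluent library to CPM in the 3 pooled confluent monolayers for each member, on a log axis; bars are 95% counting intervals. For 11 of 14 members the interval lies above 1, and ENSGALG00000045255 has the lowest ratio, 0.964. The share of other features with such an interval was not taken. The rule kept monolayer levels low, which raises these ratios, and the bars cover counting error only.

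In fibroblasts, the cells of the dermis, the share of members at low levels was near that of other features low in monolayers. The level was 0 counts for 5 of 14, at or under 3 counts for 8 (the 5 included), and 10.2 CPM for ENSGALG00000037437. In all, 12 of 14 members were under 1 CPM in fibroblasts, against 86.7% of the other features under 1 CPM in each monolayer and with a count there. None of the 14 reached 20 CPM, where 1.24% of those other features did, and neither count sets the members apart.

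The difference between fibroblasts and subconfluent keratinocytes is the comparison that the rule did not use, and it was tested with the edgeR quasi-likelihood test over 15019 features in a model of all 8 libraries. Each side has 1 library, assumed to vary like the replicated groups, so the test has no replicate check of its own. Its spread comes from the skin equivalents and monolayers, on whose levels the members were chosen. The p-values of members are therefore not independent of the rule. All 14 members passed the expression filter, which their skin equivalent counts alone would satisfy. ENSGALG00000028598, ENSGALG00000045255 and ENSGALG00000026552 passed it only through skin equivalents. In fibroblasts against subconfluent keratinocytes they had 6 against 10, 0 against 2 and 4 against 2 counts, which left little to call. They remain among the 14, so the number of members called is a description only. In fibroblasts 4 members were lower, 1 was higher and 9 were not called, against 19.5% of all features lower and 14.9% higher. At an unadjusted edgeR p under 0.05 there were 8 members. The share of all features at that threshold was not taken, so no result is drawn from this count. The balance over all features turned with the scaling: 2928 were lower and 2239 higher with TMM, 2405 and 2506 with DESeq2 size factors, and 2941 and 3041 with DESeq2. Without monolayer 3, 1850 were lower. The median log2 difference over all features was -0.21, and it was -0.02 with DESeq2 size factors, -0.38 with total counts and 0.0 with no filter beyond 1 count. The calls of 4 lower members and 1 higher member were made under each of these settings, some with further members.

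ENSGALG00000037437 was the member that was higher in fibroblasts, with 292 counts (10.2 CPM) against 64 (1.74 CPM) in subconfluent keratinocytes. Its log2 difference was 2.71 ± 0.43 (SE; edgeR adjusted p = 0.00497). ENSGALG00000027494 was lower, with 0 counts against 234 (edgeR adjusted p = 6.00e-04). With the floor of 3 counts in place of 0 it was 61.1-fold lower. The 95% counting interval of the ratio reached up to 0.0203, which allows a smaller difference. ENSGALG00000045194 was lower too, with 0 counts against 27 (edgeR adjusted p = 0.00296). With that floor it was 7.05-fold lower, and its interval reached up to 0.187, which again allows a smaller difference.

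ENSGALG00000040529 had 1 count in fibroblasts and 118 in subconfluent keratinocytes. The ratio was 0.0108, with a 95% counting interval of 0.000272 to 0.0615 (edgeR adjusted p = 0.00806). ENSGALG00000029445 had 1 count against 61, a ratio of 0.0209 with an interval of 0.000521 to 0.121 (edgeR adjusted p = 0.00279). With 1 library on each side, the spread in the test comes from skin equivalents and monolayers, so a member that was even there is called more easily.

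ENSGALG00000044962 (0 counts against 41, edgeR adjusted p = 0.0718), ENSGALG00000044527 (0 against 18, 0.0764) and ENSGALG00000044307 (2 against 23, 0.0597) lay near the threshold, and DESeq2 called the first 2. The standard error, taken from the fold and the test statistic, was 2.97 for ENSGALG00000044962. It was 0.99 for the called ENSGALG00000045194, which had fewer counts in subconfluent keratinocytes. Such an error restates the test result and does not explain it. ENSGALG00000045042 had 7 counts against 27, a ratio of 0.331 with a 95% counting interval of 0.122 to 0.779 (edgeR adjusted p = 0.144). ENSGALG00000000894 had 57 counts against 47 (edgeR adjusted p = 0.305), ENSGALG00000001035 had 12 against 22 (0.713) and ENSGALG00000028598 had 6 against 10 (0.923). Their log2 differences were 0.80 ± 0.58, -0.35 ± 0.70 and -0.21 ± 1.48 (SE), and a p of this kind does not show that the levels were alike. Also not called were ENSGALG00000026552, with 4 counts against 2, and ENSGALG00000045255, with 0 against 2. Of the 16 named features under the same rule, 7 were lower in fibroblasts by the same edgeR test.

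**Figure D3:**
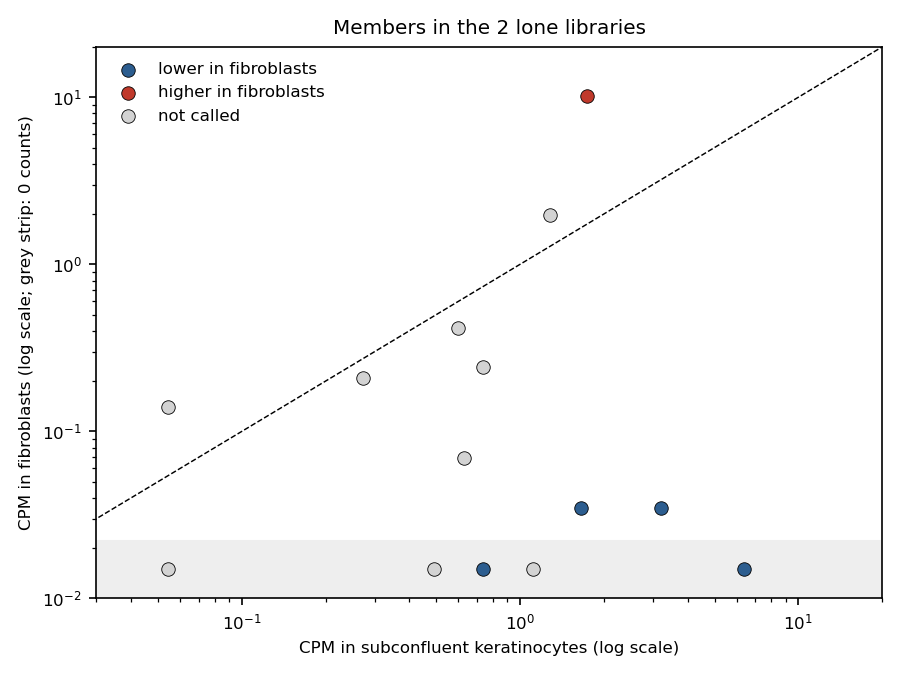
CPM of the 14 members in the fibroblast library against the subconfluent keratinocyte library, both on log axes; the dashed line marks equal levels, the grey strip holds members with 0 counts in fibroblasts, and colours give the edgeR call. Of the 14 points, 4 are called lower and 1, ENSGALG00000037437, higher in fibroblasts.

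Skin equivalents can hold fibroblasts, so features of that cell type were followed beside the members. Defined on the fibroblast library (100 CPM or more) and the subconfluent library (under 1 CPM) alone, 49 of 24902 features marked fibroblasts. No member could be among them, as none of the 14 reached even 20 CPM in fibroblasts. The share of the 49 features was 3.52% in fibroblasts and 0.0372%, 0.130% and 0.0557% in skin equivalents 1 to 3. In monolayers 1 to 3 it was 0.0773%, 0.0128% and 0.0202%. The ranges of the replicated groups overlapped, and of the 49 features 3, 0 and 1 were at 0 counts in skin equivalents 1 to 3. Skin equivalent 2 had the highest share of both these features and the members, and the part of the first in the second was not tested. ENSGALG00000037437, the member with the highest fibroblast level, was at 10.2 CPM in the fibroblast library. Fibroblasts inside a skin equivalent were not measured apart, so this value is a description only. The source of the members' RNA in skin equivalents was not tested.

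The members differed in how evenly the 3 skin equivalents carried them. The highest skin equivalent was between 1.11 and 4.60 times the lowest, with a median of 1.75, and 10 of 14 members stayed under 2. The median was 1.32 over 5434 other ENSGALG features at 20 CPM or more in each skin equivalent and 3.33 over the 16 named features of the same rule. ENSGALG00000045194 (1.11), ENSGALG00000040529 (1.18) and ENSGALG00000001035 (1.30) were the most even. ENSGALG00000028598 (4.60), ENSGALG00000044962 (4.14) and ENSGALG00000026552 (3.41) were the least even, and all 3 were highest in skin equivalent 2.

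No skin equivalent was the highest for all members. Skin equivalent 1 was highest for 2 members, skin equivalent 2 for 7 and skin equivalent 3 for 5. Over the other 5434 features the shares were 38.1%, 25.6% and 36.3%. Of the named features, 7, 6 and 3 were highest in skin equivalents 1, 2 and 3. ENSGALG00000045042 and ENSGALG00000044527 were lowest in skin equivalent 2, at 65.3 and 102 CPM, and thus differed from ENSGALG00000028598 in the order of the libraries.

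**Figure D4:**
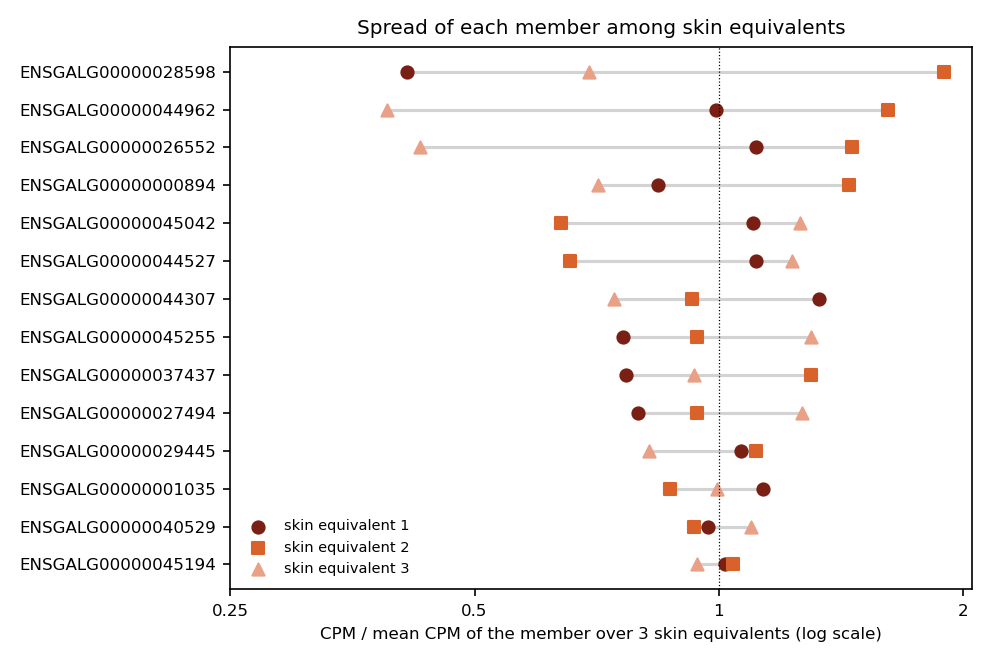
CPM of each member in skin equivalents 1, 2 and 3, divided by the member's mean over the 3, on a log axis; points are single libraries and grey lines join the lowest to the highest. Rows run from the widest spread, 4.60 for ENSGALG00000028598, to the narrowest, 1.11 for ENSGALG00000045194.

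The 16 named features under the same rule were CBP62-K, CBP58-K, CBP65-K, CBP5-C, CBP9-C, CBP11-C (corneous beta-proteins), LOR1-EDC, LOR2-EDC and LOR3-EDC (loricrins, glycine-rich proteins of the cornified envelope), EDCH1-EDC, EDCH3-EDC, EDQM1-EDC, EDQM2-EDC and EDQM3-EDC (epidermal differentiation complex), the keratin Krt9L4 and EPPKL1. In skin equivalents 1 to 3 their summed share was 1.37%, 1.23% and 1.24%, against 0.180% to 0.235% for the 14 members without a name. In fibroblasts they were at 0.139 CPM in sum, with 4 counts in all, whereas the members were at 13.3 CPM, most of it from ENSGALG00000037437. In subconfluent keratinocytes the sums were closer, at 24.2 CPM for the named features and 18.9 CPM for the members. Of the named features, CBP65-K and CBP9-C had 0 counts in all 3 monolayers, and none of the 14 members did.

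**Figure D5:**
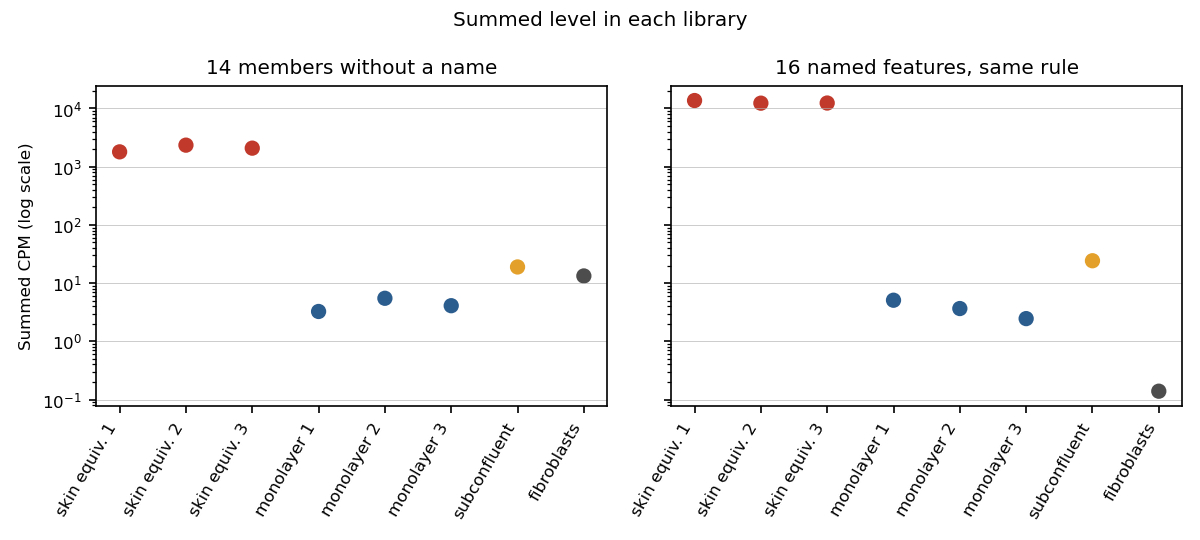
Summed CPM of the 14 members (left) and of the 16 named features that met the same rule (right) in each of 8 libraries, on a shared log axis; points are single libraries. The members lie between 1799 and 2346 CPM in skin equivalents, and the named features between 12344 and 13701, while the 2 sums differ most in fibroblasts, at 13.3 and 0.139 CPM.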

How the data were processed

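The authors deposited whole-number counts per feature for each library, unscaled, with 4 rows of fragments that no gene received, which held 28.7% to 35.5% of a library and stayed out of library sizes and tests. Per the submitters' processing notes, STAR 2.6.1a, bcl2fastq 2.19.1.403, DESeq2 1.22.2 and RSEM were used, with no role stated. Build, annotation and strand setting stand in none of the sources used here, so overlapping, antisense and multicopy genes are uncertain.

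CPM used the sum of gene counts. Fibroblasts and subconfluent keratinocytes were compared in a fit of all 8 libraries by edgeR's quasi-likelihood test (edgeR 4.0.16, R 4.3.3, robust dispersion, TMM scaling, default expression filter, Benjamini-Hochberg adjustment at 0.05). The fit was also run on simulated data, with changes only in features that had more counts than most members have in these groups. Both groups were simulated with the spread that the fit assumes, so the run could not check that assumption. Alternatives were DESeq2 1.42.0, limma-voom (limma 3.58.1), other scalings, filters and thresholds, a replicate block and single libraries left out. Standard errors come from the fold and the test statistic. Ratio intervals are exact, at 95%, and like floors of 3 counts cover counting error only, as PCR copies were not told apart. The members, thresholds and lists were chosen with earlier results of these data known. Symbol lists could not be read, as no table pairs identifiers with symbols. Given that there are 14 members, all are named, beyond the rule for named genes (highest levels in skin equivalents, fibroblasts and subconfluent cells, widest spread, nearest to the thresholds).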

Additional observations from a re-analysis of the deposited data

How the results depend on the processing

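The number of members was 14 with CPM by total counts and moved with the thresholds: 56 at 10 and 2 CPM, 5 at 50 and 0.5 CPM, and 37 by group means. With single libraries left out it was 15 to 19. Leaving a library out of the rule can only keep or add members, so the 14 were kept by definition. In subconfluent keratinocytes 4 members were under 0.5 CPM, and in fibroblasts 1 was at 10 CPM or more. Without ENSGALG00000027494 the members held 0.137% of gene counts in skin equivalents, against 0.208%. The median ratio of the highest to the lowest skin equivalent was 1.26 to 1.39 between only 2 of them. The part of any cause in these moves was not tested.

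In the comparison of fibroblasts with subconfluent keratinocytes, all 5 called members kept their direction and call under every alternative run. Each run compared the same fibroblast library with the same subconfluent library, so the shared direction is no independent check. ENSGALG00000044962 and ENSGALG00000044527 were also called lower with DESeq2 (adjusted p = 0.00977 and 0.0231), ENSGALG00000044527 without monolayer 1 (0.0223), and ENSGALG00000044307 without monolayer 2 (0.0447) and with total counts (0.0490). Over all features, 1850 to 3604 were lower with single libraries left out. With a replicate block from the title codes, 4 members were lower and 1 was higher, and 2390 features were lower and 1741 higher over all, against 2928 and 2239. The fibroblast library has no code and was put with code 20, the code of the subconfluent library. The log2 differences of the members were therefore those of the main fit, and only the fitted spread changed. Libraries with the same number in both replicated groups share a title code, whose meaning is not stated. The correlations of their deviations from the group means were -0.0767, -0.151 and 0.143 for numbers 1 to 3. Not every library correlated best with its own number. Deviations from means of only 3 libraries cannot decide whether such libraries belong together. Counts of 0 to 5 in monolayers and fibroblasts limit the precision of the lowest members.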
